A study of Mus musculus with 2 samples.

Results

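The activity of noncoding snoRNA host genes was examined in myoblasts of the C2C12 line with GRO-seq, a global run-on assay. The genes were chosen by name as Snhg1, Snhg3, Snhg5, Snhg6, Snhg7, Snhg8, Snhg11, Snhg12 and Gas5, with the levels of some of them already known, so their levels are given here as a description. Of these 9 symbols, 6 had an entry in the table of 24165 RefSeq entries (20128 gene symbols), each with a single entry, and 3 (Snhg3, Snhg5 and Snhg8) had none. All 6 were active, where the background was 70.2% of all entries and 43.7% of noncoding entries. C2C12 is an established mouse line of myoblasts, the muscle precursor cells that fuse into fibres. In GRO-seq, nuclei are isolated and engaged polymerases run on with a labelled nucleotide, so that sequenced nascent RNA marks polymerases that were transcribing. Untreated cells were grown to 80% confluency, 4 plates went into each nuclei isolation, and 2 libraries were made. The authors pooled both libraries, so the table holds 1 value per entry, there is no group to compare with, and no difference between genes has a replicate check. Gene activity is in RPKmM, the sense-strand reads from 1 kb after the transcription start to the end of the gene, per kilobase of mappable sequence and scaled to the number of reads. An entry not above the read density of gene deserts carries the word Inactive. In a bulk sample, fewer cells that transcribe a gene and less transcription per cell cannot be told apart. The depth of the libraries is not in the table, and no counting interval was computed.

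Small nucleolar RNAs (snoRNAs) are short, stable RNAs of the nucleolus that guide chemical changes on ribosomal and spliceosomal RNA. C/D snoRNAs guide methylation of the ribose and H/ACA snoRNAs guide the change of uridine to pseudouridine. Most vertebrate snoRNAs have no promoter of their own: they lie in introns of a host gene, and are trimmed from the excised intron after splicing. Many hosts code for ribosomal proteins, but in others the spliced RNA has no long reading frame and is degraded quickly, so that the introns hold the stable product.

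Snhg1 was first described as a gene whose introns, with the snoRNAs in them, are more conserved than its exons. Its annotated transcript at chr19:8797986-8800931 (mm9, plus strand) holds 8 C/D snoRNAs, more than any other member except Gas5. The 4 sequences shown were chosen from along the gene, and include its longest, Snord22, which takes part in processing of the small-subunit ribosomal RNA. Names in capitals are those the annotation gives to predicted genes. Sequences run 5′ to 3′, and capitals mark box C (TGATGA, searched in the first 20 bases) and box D (CTGA, in the last 15 bases), the short motifs that bind the proteins of a C/D particle.
SNORD25 (chr19:8798486-8798550, plus strand): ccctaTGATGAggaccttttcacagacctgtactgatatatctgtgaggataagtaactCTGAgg
SNORD27 (chr19:8799021-8799092, plus strand): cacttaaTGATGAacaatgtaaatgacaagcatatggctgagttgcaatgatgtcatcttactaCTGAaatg
SNORD28 (chr19:8799358-8799433, plus strand): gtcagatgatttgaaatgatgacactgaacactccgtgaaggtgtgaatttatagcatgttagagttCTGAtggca
Snord22 (chr19:8800356-8800481, plus strand): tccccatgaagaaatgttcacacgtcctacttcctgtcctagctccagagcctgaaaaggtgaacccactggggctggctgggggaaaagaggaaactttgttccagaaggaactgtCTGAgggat
The first pair held both boxes, and SNORD28 and Snord22 held box D with no exact TGATGA in the window searched.

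Gas5, the growth arrest-specific gene, was cloned from fibroblasts that had stopped dividing, and its spliced RNA is removed by decay that depends on translation. The annotated transcript at chr1:162965294-162968668 (mm9, plus strand) has 12 exons and 9 C/D snoRNAs, each in an intron of its own. SNORD44, SNORD79 and SNORD81, shown as examples from the measured part of the gene, each held both boxes.
SNORD44 (chr1:162966813-162966872, plus strand): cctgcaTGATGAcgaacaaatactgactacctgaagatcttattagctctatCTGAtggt
SNORD79 (chr1:162967487-162967570, plus strand): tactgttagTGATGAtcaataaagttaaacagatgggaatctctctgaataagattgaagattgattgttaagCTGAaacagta
SNORD81 (chr1:162968439-162968514, plus strand): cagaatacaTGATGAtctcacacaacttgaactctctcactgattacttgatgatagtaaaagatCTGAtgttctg

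Snhg12 was the only one of the 5 hosts with a span in the annotation that held both classes, with 3 H/ACA snoRNAs and 1 C/D snoRNA in its 4 introns. All 4 are shown for that reason, from the annotated transcript at chr4:131864608-131866939 (mm9, plus strand), and in H/ACA snoRNAs capitals mark the ACA searched in the last 6 bases.
Snora16a (chr4:131865380-131865515, plus strand): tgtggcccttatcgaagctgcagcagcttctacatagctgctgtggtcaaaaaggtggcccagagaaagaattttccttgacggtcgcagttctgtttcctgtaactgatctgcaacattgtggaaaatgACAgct
Snora44 (chr4:131865856-131865984, plus strand): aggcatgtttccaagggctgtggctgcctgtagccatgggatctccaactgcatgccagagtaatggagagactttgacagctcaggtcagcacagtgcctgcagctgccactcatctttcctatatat
Snora61 (chr4:131866155-131866284, plus strand): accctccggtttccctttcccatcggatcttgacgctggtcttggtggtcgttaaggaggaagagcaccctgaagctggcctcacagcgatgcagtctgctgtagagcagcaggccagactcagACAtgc
Snord99 (chr4:131866606-131866679, plus strand): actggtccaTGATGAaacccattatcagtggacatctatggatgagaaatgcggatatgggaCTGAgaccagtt
Snora44 held no ACA in the last 6 bases of its annotated sequence.

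Snhg7 and Snhg11 each held 2 H/ACA snoRNAs and no C/D snoRNA. In Snhg7, at chr2:26492697-26495764 (mm9, minus strand), they are Snora17 and Snora43. In Snhg11, known for its expression in neurons, the annotated transcript at chr2:158201398-158207331 (mm9, plus strand) holds a pair of SNORA71 genes in 1 intron, and they are shown because they share a name and a length of 133 bases.
SNORA71 (chr2:158203958-158204090, plus strand): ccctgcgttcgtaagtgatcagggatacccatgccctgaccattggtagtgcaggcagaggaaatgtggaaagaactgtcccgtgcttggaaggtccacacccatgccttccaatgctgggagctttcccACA
SNORA71 (chr2:158205270-158205402, plus strand): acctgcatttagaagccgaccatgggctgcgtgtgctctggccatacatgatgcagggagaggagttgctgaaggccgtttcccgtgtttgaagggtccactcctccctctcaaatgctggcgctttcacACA
The pair was identical at 56 of 133 positions (42.1%) when set side by side without gaps. The mm9 annotation has no gene of the name Snhg6; in RefSeq names Snhg6 holds Snord87, and no sequence of it is shown.

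In the table, activity of the hosts spanned a range from among the highest values of the genome to the lower part of the active entries. Snhg1 (NR_002896) had an activity of 292.85, the highest of the 6, at rank 6 of all 16957 active entries. Gas5 (NR_002840) followed with 217.29, at rank 9. Snhg12 (NR_029468) had 203.9, at rank 11. These 3 were the only members at or above 100, a level reached by 0.142% of active entries and 0.741% of active noncoding entries. Snhg6 (NR_024067) had an activity of 70.53, at rank 42. Snhg7 (NR_024068) had 5.24, at rank 1201, with 92.9% of active entries below it. Snhg11 (NM_175692), the only member with a coding RefSeq identifier, had an activity of 0.03 at rank 14827, with 10.5% of active entries below it. The plot of activity over all active entries shows 4 hosts in the sparse upper tail, Snhg7 on the upper shoulder and Snhg11 in the lower part.

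**Figure D1:**
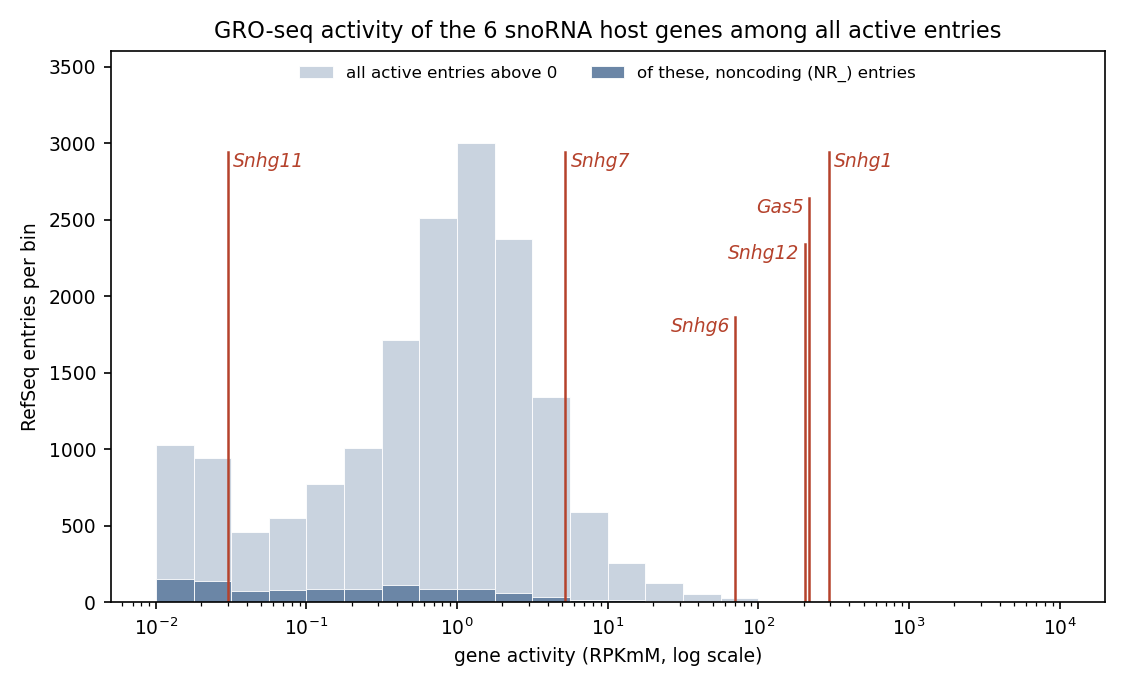
Gene activity in RPKmM (x axis, log scale) of all active RefSeq entries above 0, as the number of entries per bin (y axis), with noncoding entries in the darker shade and a vertical line at the single pooled value of each of the 6 hosts; line heights carry no value. Snhg1, Gas5 and Snhg12 lie at 292.85, 217.29 and 203.9, Snhg6 at 70.53, Snhg7 at 5.24 and Snhg11 at 0.03.

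The median of all active entries was 0.87, with quartiles of 0.22 and 1.99. Relative to that median, activity was 337-fold for Snhg1, 249.8-fold for Gas5, 234-fold for Snhg12, 81.1-fold for Snhg6 and 6.02-fold for Snhg7, and 0.0345-fold for Snhg11. On the log2 scale these differences were 8.39, 7.96, 7.87, 6.34, 2.59 and -4.86. Thus 5 of the 6 hosts lay above the median of active entries, where 49.7% of active entries lie, and the same number reached the upper quartile, where 25.1% of active entries and 12.2% of active noncoding entries lie. As the genes were chosen with such values in view, nothing is read from these counts.

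Noncoding entries were lower than coding ones as a whole, so the hosts were also set beside noncoding entries alone. Active entries with a noncoding identifier had a median of 0.16 (1079 of 2471 active, quartiles 0.03 and 0.76), and those with a coding identifier a median of 0.92. Among the 1079, Snhg1 had rank 4, Gas5 rank 5, Snhg12 rank 6, Snhg6 rank 10 and Snhg7 rank 54. The entries ahead of Snhg1 were Rn45s (5957.39), the precursor of ribosomal RNA, and the nuclear RNAs Malat1 (910.36) and Neat1 (534.56), which were named after their values were seen. Among entries of every kind, the coding genes Rpl17 (888.63) and Calr (311.5) were also ahead of Snhg1.

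Short genes have a smaller measured part, and the hosts were also set beside entries with a gene under 10 kb. The 3636 active entries of that kind had a median of 0.81 and an upper quartile of 2.21. Snhg1 was above 99.89% of them, Gas5 above 99.83%, Snhg12 above 99.81%, Snhg6 above 99.3% and Snhg7 above 88.8%. Snhg11 was above 8.47%. The gene of Snhg11 spans 10508 bases in the annotation and Snhg6 has no annotated span, so neither is among these short entries. Of all short active entries, 48.3% lay above the median of active entries and 27.2% reached the upper quartile, against 5 of the 6 hosts in each case.

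Among themselves the hosts fell by very uneven steps. Snhg1 was 1.35-fold above Gas5, and Gas5 was 1.07-fold above Snhg12, so that the top 3 lay within 1.44-fold of each other. Snhg12 was 2.89-fold above Snhg6, Snhg6 was 13.5-fold above Snhg7, and Snhg7 was 175-fold above Snhg11. Without replicate values, none of these steps can be set against a spread, and the order within the top 3 in particular has no error. The value of Snhg11 is 3 units of the last printed digit, since activities are rounded to 2 decimals, so the 9762-fold distance from Snhg1 is coarse. The median of the 6 was 137.215, a value that falls in the gap between Snhg6 and Snhg12 and describes no single host.

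The measured part of these genes holds few bases, and snoRNA sequence fills part of them. It was taken here as the annotated transcript less its first 1000 bases, which gives 1946 bases in Snhg1, 2375 in Gas5, 1332 in Snhg12, 2068 in Snhg7 and 4934 in Snhg11. Of the 25 snoRNAs in these 5 hosts (18 C/D and 7 H/ACA), 18 lie wholly inside it. They number 6 of 8 in Snhg1, 6 of 9 in Gas5, 3 of 4 in Snhg12, 1 of 2 in Snhg7 and both in Snhg11, and part of Snora17 of Snhg7 also reaches into it. The map of the hosts shows snoRNAs along most of Snhg1, Gas5 and Snhg12, and fewer of them in Snhg7 and Snhg11.

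**Figure D2:**
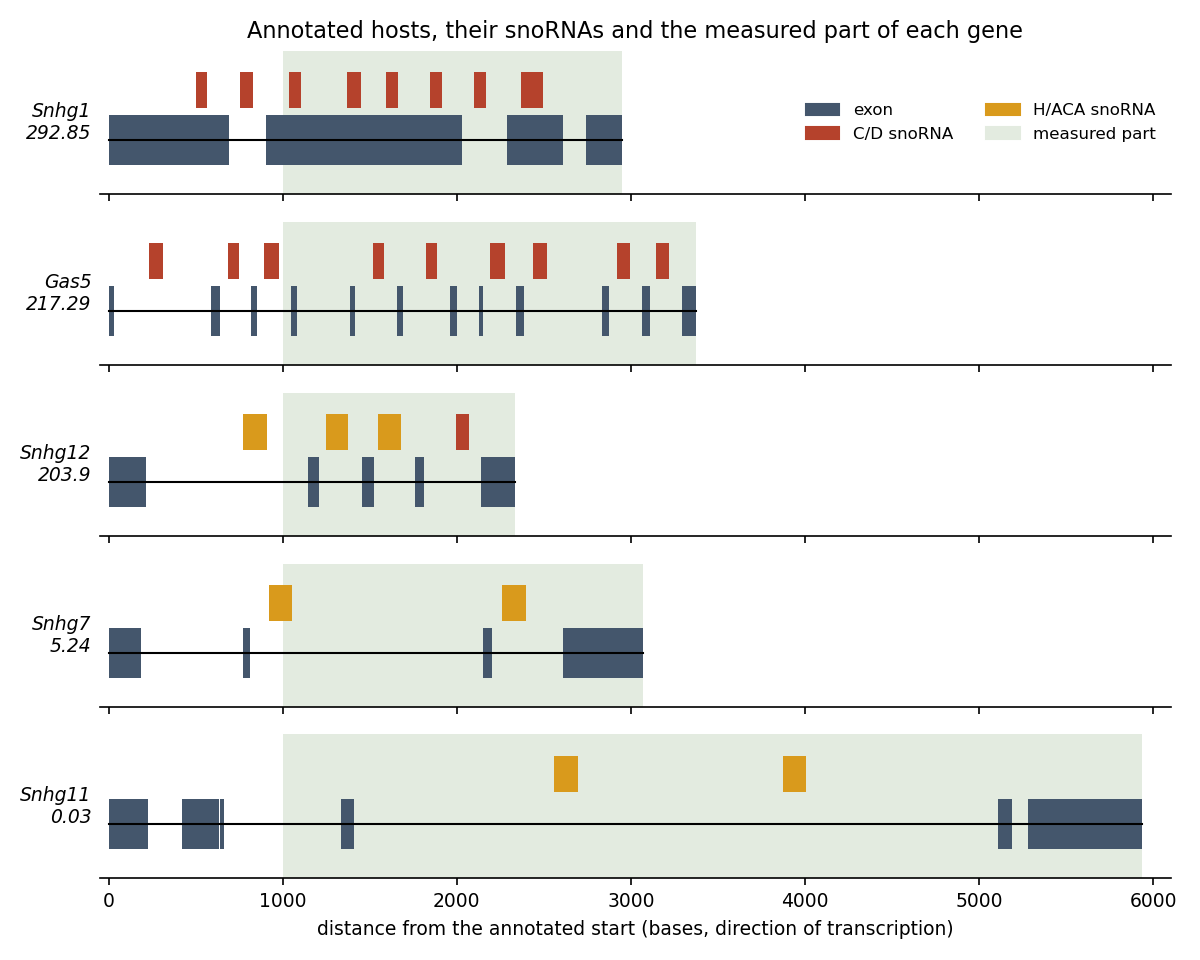
Annotated transcripts of 5 hosts by distance from the annotated start in bases, in the direction of transcription, with exons (dark boxes on the line), C/D snoRNAs (red) and H/ACA snoRNAs (orange); shading marks the part counted for activity, from 1000 bases to the end, and the number under each name is its activity in RPKmM. Snhg1 and Gas5 hold 8 and 9 C/D snoRNAs, Snhg12 holds 3 H/ACA and 1 C/D, and Snhg7 and Snhg11 hold 2 H/ACA each.

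SnoRNA bases made up 25% of the measured part in Snhg12, 24.4% in Snhg1 and 18.7% in Gas5, the 3 members with the highest activity among these 5. In Snhg7 the share was 9.38% and in Snhg11 5.39%. A single density per gene does not tell reads on the snoRNAs from reads on the rest of the intron, and the part of snoRNA sequence in the activity of any host was not tested. Exons covered 16.2% of the measured part in Gas5, 28.2% in Snhg12, 24.8% in Snhg7 and 16.6% in Snhg11. Snhg1 differed, with 79.8%. That share holds for the annotated transcript used, of 4 exons, in which 6 of its 8 snoRNAs lie outside the introns. Whether other transcripts of Snhg1 place these snoRNAs in introns was not tested.

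Reads of 75 bases would map to 1 place only at every position of the measured part of Snhg1, Gas5, Snhg12 and Snhg7, and at 4881 of 4934 positions (98.9%) in Snhg11. Each of the 25 snoRNA sequences occurred once in the mm9 genome when searched exactly on both strands. Near-identical copies were not searched for. The authors also trimmed and remapped reads that failed, and uniqueness at such shorter lengths was not counted.

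Intronic C/D snoRNAs are known to sit at a preferred distance before the splice site that ends their intron. In Gas5 that distance was 71 bases for SNORD75, 68 for SNORD24, 78 for SNORD44, 74 for SNORD78, 65 for SNORD79, 66 for Snord47 and 73 for SNORD81. SNORD74, in the first intron, lay 278 bases before it, and SNORD77 313 bases. So 7 of the 9 snoRNAs of Gas5 lay between 60 and 90 bases from the splice site, in introns of differing length. Snord99, the single C/D snoRNA of Snhg12, lay 69 bases before its splice site. In Snhg1, SNORD26 lay 77 bases and SNORD31 121 bases before the splice site, and its other 6 snoRNAs have no such distance.

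Over the hosts, 9 of 12 C/D snoRNAs in an intron (75%) lay between 60 and 90 bases from the splice site, with a median of 73.5 bases and a range from 65 to 313. C/D snoRNAs with a mouse symbol in protein-coding hosts had a median of 87 bases, with 25 of 52 (48.1%) in that window. Their range was from 59 to 1192234 bases in the transcript chosen for each gene, which may not be the one that hosts the snoRNA. The 7 H/ACA snoRNAs had a median of 237 bases and a range from 81 to 2416, and 2 (28.6%) were in the window. These 2 were Snora44 and Snora61 of Snhg12, at 81 bases each, whereas Snora16a lay at 237, Snora43 and Snora17 of Snhg7 at 213 and 1094, and the pair in Snhg11 at 1104 and 2416. H/ACA snoRNAs with a mouse symbol in protein-coding hosts had a median of 175 bases and a range from 49 to 77876, with 5 of 25 (20.0%) in the window. The snoRNAs of the members were counted under any name, predicted ones included, so the sets differ in kind. The pair of Snhg11 is among the 7 H/ACA snoRNAs, though Snhg11 has a coding identifier and the annotation calls it protein-coding. The snoRNAs of 1 host share its introns and are not independent, so no test of the shares was made.

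Box D was found in 18 of 18 C/D snoRNAs of the hosts, and in 90.5% of the 346 C/D snoRNAs of the annotation. Box C in its exact form was found in 13 of 18 (72.2%), against 74.9% of the annotation. The ACA was found in 6 of 7 H/ACA snoRNAs (85.7%), Snora44 being the exception, against 62.6% of 1031 in the annotation and 91.2% of the 34 with a mouse symbol. The search used the annotated strand only.

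Host RNAs often begin with C and a run of C and T, the 5′ terminal oligopyrimidine tract, which ties translation of ribosomal protein mRNAs to growth signals. Starts from RefSeq (GRCm38.p6) were found for 5 hosts with an entry, all but Snhg6. Each sequence has 50 bases before the start and 25 from it on, in the direction of transcription. Capitals mark a TATA word (TATAAA and its variants TATATA and TATTTA, chosen after the sequences had been read) that begins 40 to 16 bases before the start, and the unbroken run of C and T from the start base. The words can overlap one another and were read on the strand of the gene alone. These sequences are shown because 4 of the 5 hold 1 of these words, TATATA in Gas5 and Snhg12, TATTTA in Snhg1 and TATAAA in Snhg7.
Snhg1 (chr19:8723437-8723511, plus strand): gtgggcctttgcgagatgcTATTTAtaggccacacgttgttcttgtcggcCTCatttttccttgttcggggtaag
Gas5 (chr1:161035116-161035190, plus strand): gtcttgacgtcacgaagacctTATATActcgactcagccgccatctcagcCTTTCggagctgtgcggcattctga
Snhg12 (chr4:132308628-132308702, plus strand): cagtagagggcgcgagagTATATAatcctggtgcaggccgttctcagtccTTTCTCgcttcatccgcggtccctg
Snhg7 (chr2:26640220-26640294, minus strand): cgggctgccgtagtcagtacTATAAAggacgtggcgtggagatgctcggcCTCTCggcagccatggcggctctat
Snhg11 (chr2:158375663-158375737, plus strand): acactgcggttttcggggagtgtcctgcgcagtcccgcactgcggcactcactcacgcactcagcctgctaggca
A TATA word was present in 4 of these 5 hosts and in 3.33% of 32851 promoters of the same length. Since the words were chosen after these sequences had been read, nothing is read from that difference. Among these 5, TATAAA itself was found in Snhg7 alone. Snhg11, the least active host, had none, and its RNA begins with A. Gas5 and Snhg7 began with C and a run of 5 bases of C and T, where 3.76% of promoters begin with C and a run of at least 4. Snhg1 began with C and a run of 3, and Snhg12 began with T in a run of 6. A first base of C was found in 16.3% of promoters. A looser form is C followed by at least 4 of C or T within 10 bases of the start. Gas5, Snhg7 and Snhg12 held that form, as did 25.5% of promoters, and Snhg1 and Snhg11 did not. The table has a further, upstream start of Gas5, at chr1:161034551-161034625 with the same flanks, which begins with G and has no TATA word. In the mm9 annotation 14 of 25 Gas5 transcripts begin within 30 bases of the start of the transcript used here, 4 begin upstream and 7 further downstream.

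None of the 5 hosts with a span overlapped another gene on the same strand, and the genes beside them ran on the other strand. Snhg1 starts 127 bases from Slc3a2, which encodes a chain of amino acid transporters and is transcribed away from it. The entries of Slc3a2 had activities of 3.69 and 3.52, so that Snhg1 was 79.4-fold and 83.2-fold higher. Gas5-001 starts 314 bases from Zbtb37, a zinc finger gene whose annotation overlaps that of Gas5 by 428 bases on the other strand. Zbtb37 had an activity of 1.87, and Gas5 was 116-fold higher. As Snhg1 and Gas5 were taken with their high levels known, nothing is read from these ratios.

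Trnau1ap, a gene of selenocysteine incorporation that lies 738 bases from Snhg12, had an activity of 0.87, and Snhg12 was 234-fold higher. Fam69b lies 679 bases from Snhg7 and had 0.14, and Snhg7 was 37.4-fold higher. The gene that starts nearest to Snhg7, 5730588L14Rik at 128 bases, has no entry, and neither has Gm20532. Snhg11 had no neighbour on the other strand within 5 kb. In RefSeq names Snhg6 overlaps Mcmdc2, a gene of meiosis, whose single entry was Inactive. The plot of hosts and neighbours shows each host to the right of its neighbour.

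**Figure D3:**
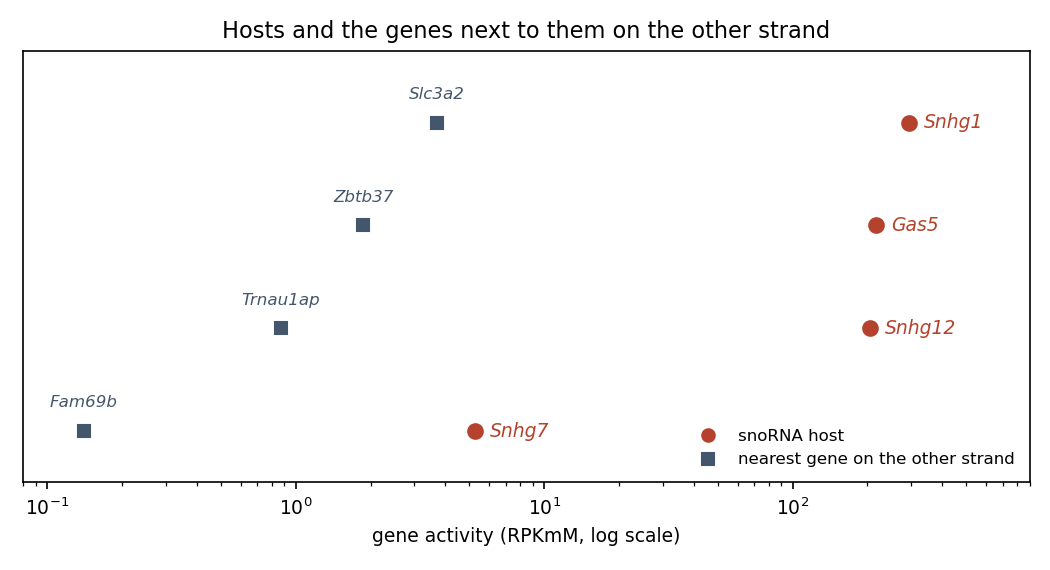
Gene activity in RPKmM (x axis, log scale) of 4 hosts (circles) and of the nearest gene with a value on the other strand within 5 kb of each (squares, highest entry of the gene), 1 row per host. Slc3a2 at 3.69 is the highest neighbour, below the 5.24 of Snhg7, the lowest host drawn.

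Among the 3 symbols with no entry, Snhg5 has an annotated span of 1828 bases, under the 2 kb that the authors required of a gene. Snhg3 spans 5673 bases in the annotation, of which 5592 overlap Rcc1, the exchange factor of the GTPase Ran, on the same strand. Rcc1 had an activity of 3.56, which can hold reads from Snhg3, since both run the same way. Snhg8 has no gene of that name in the mm9 annotation used here. Why Snhg3 and Snhg8 have no entry was not tested.

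Genes the annotation calls protein-coding, with a snoRNA inside their span on the same strand, in an intron or not, were set beside these hosts. There were 64 such genes for snoRNAs with a mouse symbol, of which 62 had an entry and 61 were active, where 70.2% of all entries were, with a median activity of 9.93. Of their 67 active entries, 61 (91.0%) reached the upper quartile of all active entries, against the background of 25.1%. These figures depended on the snoRNAs counted: with predicted snoRNAs included, the median was 2.48 and 148 of 264 active entries (56.1%) reached the upper quartile. One of the 64, 1810032O08Rik, has a noncoding entry and is an older symbol of Snhg16, and the wider list also held it and Snhg11. Without them the medians were 9.87 and 2.48. The highest of the 64 were the ribosomal protein gene Rpl3 (182.05) and Rack1 (172.61), which encodes a protein bound to the small ribosomal subunit, and both lay below Snhg12 at 203.9. The lowest active were Dcaf5 (1.13), a substrate receptor of a ubiquitin ligase, and the ribosomal protein gene Rps13 (0.74). Htr2c, a serotonin receptor of the brain, was Inactive. So Snhg1, Gas5 and Snhg12 were above each of the 62 of these 64 with an entry, though not above Rpl17 (888.63) of the wider list. Snhg6 and Snhg7 fell within the range of the 62, and Snhg11 was below all of them that were active.

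In a list of 43 coding hosts from textbook knowledge, all were active with a median of 15.14, and 47 of 48 entries (97.9%) reached the upper quartile, beside 70.2% of all entries active and 25.1% of active entries in that quartile. It holds Rpl17 (888.63), whose snoRNAs have predicted names in the annotation, the only coding host in it at or above the level of Snhg12, and at its lower end Dkc1 (2.46), the pseudouridine synthase of H/ACA particles, and Cwf19l1 (1.29). The plot of gene lists sets the 6 hosts beside these groups.

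**Figure D4:**
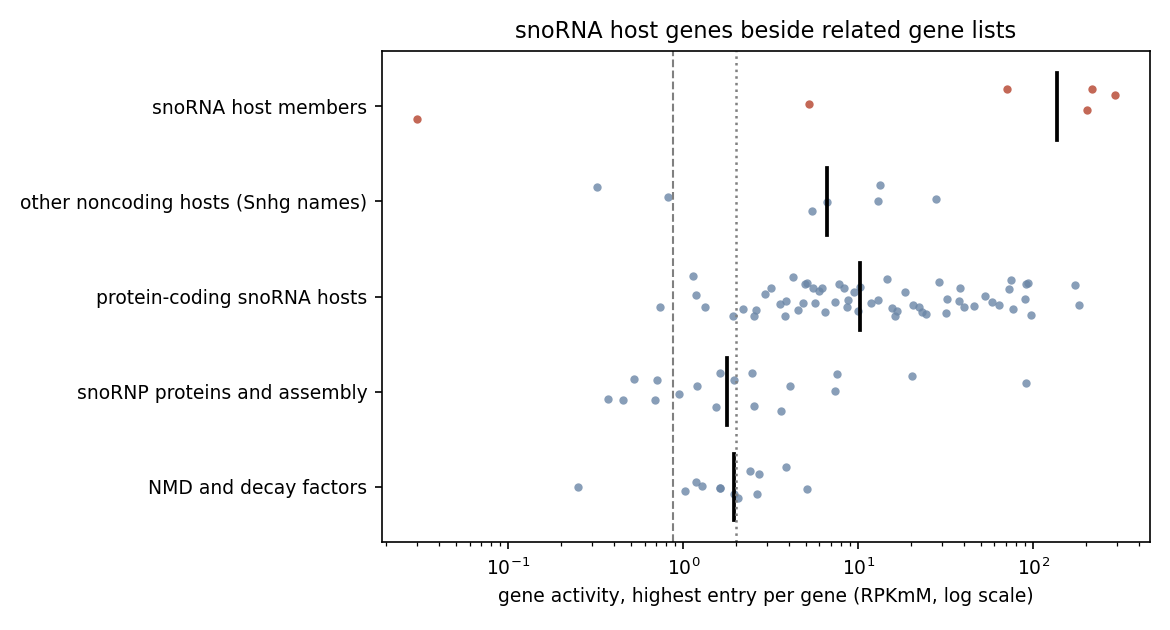
Gene activity in RPKmM (x axis, log scale) of 5 groups of genes, 1 point per active gene at its highest entry, with points spread vertically only for visibility; the black bar is the group's median, the dashed line the median of all active entries (0.87) and the dotted line their upper quartile (1.99). The 6 hosts have a median of 137.215, other Snhg genes 6.62, protein-coding hosts 10.28, snoRNP genes 1.785 and decay factors 1.95.

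Genes for the proteins that bind, assemble or modify snoRNAs did not have the levels of the top hosts. Of 19 such genes 18 had an entry and all 18 were active, with a median of 1.62, and 8 of 19 entries (42.1%) reached the upper quartile, where over all entries 70.2% were active and 25.1% of active entries reached it. The highest were Nop56 (90.57), a core protein of C/D particles and itself a snoRNA host, and Nolc1 (20.2), a chaperone of snoRNPs in the nucleolus and Cajal body. By the highest entry of each gene, the lowest were Shq1 (0.45), an assembly factor of H/ACA particles, and Znhit3 (0.37), an assembly factor of C/D particles. Nop56, the highest of them, lay above Snhg6 at 70.53 and below Snhg12 at 203.9.

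Spliced RNAs of noncoding hosts are known to be removed by nonsense-mediated decay and exonucleases, and the genes of that machinery were set beside them. All 13 were active, with a median of 2.0, and 7 of 14 entries (50%) reached the upper quartile, where over all entries 70.2% were active and 25.1% of active entries reached it. Among them Xrn2, a nuclear exonuclease, had an activity of 3.87. The lowest were Dcp2 (1.02), the decapping enzyme, and Smg9 (0.25), a part of the complex around the kinase Smg1. Each of the 13 was thus below Snhg7 at 5.24. The table measures engaged polymerases, so it holds no stability of the host RNAs and none of their steady-state levels.

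The label of the cells was checked against marker genes. Of 8 myoblast markers, all were active, from Vim (146.13) and Des (72.45) to Pax7 (0.55) and Cdkn1c, listed at 0. Myod1 and Myf5, the factors that define myoblasts, had 2.39 and 5.03. Of 8 markers of other cell types, 6 were Inactive, and the other two were Cdh1 (0.02) and Pecam1 (0.01). The 6 markers of differentiated muscle were all active, between 0.2 and 6.85. Of these, Acta1 (6.85) and Myh3 (5.28) were above Myod1 and Myf5, and Myog equalled Myod1 at 2.39. Myh1 (1.56), Tnnt3 (0.83) and Ckm (0.2) were below both. As 70.2% of all entries were active, being called active says little of a marker by itself.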

How the data were processed

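GRO-seq of untreated C2C12 myoblasts gave 2 libraries. The submitters' processing notes name CASAVA 1.8, Bowtie2 (version not given in the sources used here) and the build mm9. The authors mapped the reads, trimmed and remapped those that failed, kept a mapping quality of at least 40, left out repeats of rRNA and tRNA, and pooled the libraries. The deposited values, of an RPKM-like unit per mappable kilobase (RPKmM), were used as they stand. The unit was entered as other, since the column mixes numbers with the word Inactive, so its range was not tested automatically. The methods took genes of at least 2 kb on numbered chromosomes and X, and counted from 1 kb after the start. Pooling hides the variation between libraries, and rounding to 2 decimals leaves few distinct low values.

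Entries were found by gene symbol. Each result is a level, rank, count, median or ratio, with no p-value, because genes are not replicates. Host spans, snoRNAs, introns and sequences came from GENCODE vM1 and the mm9 genome (NCBIM37), with the transcript of most exons, and then the longest, for each gene. RefSeq spans of mm9 were not used here, so the measured part is that of the annotated transcript. Start sequences came from the RefSeq table of GRCm38.p6. Positions with a unique 75-base sequence were counted as mappable. The members and lists were chosen with earlier results of these data known. Genes named are every entry of the 9 members, the 2 highest, 2 lowest and up to 5 inactive genes of each list, and the genes beside each host; some of these are not reported here. Alternatives were another entry per symbol, geometric means with pseudocounts of 0.01 and 0.001, activities of at least 0.1, and other backgrounds. The count of unique positions and the ranking were tested on simulated data. Python 3.11.15, numpy 2.4.6, scipy 1.17.1 and matplotlib 3.10.9 were used.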

Additional observations from a re-analysis of the deposited data

How the results depend on the processing

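The activity of each host was the same for the highest, lowest and median entry of its symbol, because each has 1 entry. The counts of 5 hosts above the median and 5 at the upper quartile were the same against noncoding entries, against entries with a gene under 10 kb and against 1 entry per symbol. The median of the hosts depended on the centre: it was 137.215 over all 6, 24.01 as a geometric mean with a pseudocount of 0.01, 23.02 with 0.001, and 203.9 with activities of at least 0.1 or without Snhg11, both of which take out the lowest host. The active share was 70.2% of entries and 68.7% of symbols. With the highest entry per symbol, medians went from 1.62 to 1.785 for snoRNP genes, from 15.14 to 18.55 for the textbook list of coding hosts, from 9.93 to 10.28 for coding hosts of the annotation, from 2.0 to 1.95 for decay factors and from 0.16 to 0.15 for noncoding entries. With predicted snoRNAs counted too, coding hosts had a median of 2.48, over 220 active genes of 236 with an entry. Without 1810032O08Rik, which has a noncoding entry, and Snhg11, one of the 6 hosts, these medians were 9.87 (mouse symbols) and 2.48 (any name). These settings and the median of the hosts without Snhg11 were chosen after seeing the data. No paired analysis was possible because the table holds 1 pooled value per entry, and for the same reason no library could be left out. The depth of the libraries is not in the table, and no counting error was computed for low values such as that of Snhg11.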

Other observations

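Other noncoding hosts with a Snhg name lay outside the 9 symbols, and were named after their values were seen. Snhg4 had an activity of 27.87. Snhg17 had 13.24 and 13.23 in its 2 entries, and 1810032O08Rik, an older symbol of Snhg16, had 12.97. Snhg20 had 6.62 and Snhg15 5.43. Snhg18 (0.82) and Snhg14 (0.32), the latter a long gene of the imprinted Prader-Willi region, were below the median of active entries. The 8 entries had a median of 9.795, and each was below Snhg6 at 70.53.

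Among ribosomal protein genes, the 29 with a snoRNA in the annotation, predictions included, or in the textbook list of coding hosts were all active, with a median of 15.01, and 29 of 30 entries (96.7%) reached the upper quartile of active entries. Of the 40 without one, 38 were active, with a median of 3.295, and 36 of 44 active entries (81.8%) reached it. Over all entries, 70.2% were active and 25.1% of active entries reached that quartile. The highest of those without were Rps24 (34.5) and Rpl11 (14.11), and the lowest with one were Rps20 (2.68) and Rps13 (0.74). Gene length and the share of snoRNA sequence in these genes were not compared, and their part in the difference was not tested.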
